A study of Rattus norvegicus and Mus musculus with 24 samples.

Results

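Of the 18043 gene symbols measured in these kidneys, 10 were followed here for their part in iron handling and in ferroptosis. They were chosen by name, as the rows of the mouse and rat tables whose symbol was TFRC, FTH1, FTL, SLC40A1, SLC11A2, GPX4, NCOA4, ACSL4, HAMP or CP, and all 10 were found in both tables. Messenger RNA was sequenced from the kidneys of animals that lack Ctns, the gene of the lysosomal cystine exporter cystinosin (Ctns KO), and of their wild-type control littermates (Ctns WT). The 24 libraries, 1 per animal, came from 4 KO and 4 WT mice on the C57BL/6 background and from 8 KO and 8 WT rats on the Sprague-Dawley background. The rats are numbered 17 to 24 and 25 to 32 with 4 KO and 4 WT rats in each range, and the labels do not say what sets the ranges apart. No treatment is named for any group, and the age of the sequenced animals is not stated in the labels. Kidney cortex is the tissue in the methods, while the extraction protocol of the labels speaks of proximal tubules taken out by microdissection.

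Iron enters cells as ferric iron on transferrin, which is taken up by the transferrin receptor TFRC, and it leaves the endosome through the divalent metal transporter SLC11A2 (DMT1). Inside the cell it is stored in ferritin, a shell of heavy (FTH1) and light (FTL) chains, and it is freed when the cargo receptor NCOA4 carries ferritin to the lysosome. Ferroportin (SLC40A1) is the exporter, the copper enzyme ceruloplasmin (CP) oxidises the iron that leaves, and the liver hormone hepcidin (HAMP) closes ferroportin. Ferroptosis is a form of cell death driven by iron-dependent oxidation of membrane lipids. GPX4 reduces the lipid peroxides, and ACSL4 loads polyunsaturated fatty acids into the membranes where they form. In the kidney the proximal tubule takes iron-binding proteins back from the filtrate by endocytosis.

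Several of these messages carry an iron-responsive element, a short hairpin that iron regulatory proteins bind when iron is low: in the 5′ untranslated region (UTR) it blocks translation, and in the 3′ UTR it shields the message from decay. The elements below are shown because they are the sites through which iron is known to act on these messages. A search of the GENCODE vM21 mouse transcripts (GRCm38) for CNNNNNCAGTGN with 5 further bases, in which the 5 bases on either side of the 6-base loop pair as a stem with G to T pairs allowed, found a match in 4 members. Only the transcribed strand was searched, since the element works in RNA. Each is 17 bases long, written 5′ to 3′ with the loop in capitals, the first 4 from the 3′ UTR of Tfrc and the others from the 5′ UTRs of Fth1, Ftl1 and Slc40a1:
Tfrc, chr16:32631225-32631241, plus strand: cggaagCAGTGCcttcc
Tfrc, chr16:32631604-32631620, plus strand: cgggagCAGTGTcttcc
Tfrc, chr16:32631669-32631685, plus strand: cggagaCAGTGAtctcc
Tfrc, chr16:32631716-32631732, plus strand: cgggaaCAGTGTttccc
Fth1, chr19:9982738-9982754, plus strand: cttcaaCAGTGCttgaa
Ftl1, chr7:45459785-45459801, minus strand: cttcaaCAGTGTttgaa
Slc40a1, chr1:45925471-45925487, minus strand: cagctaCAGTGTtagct

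Of 21877 protein-coding mouse genes, 31 (0.142%) held such a match in a 5′ UTR and 129 (0.59%) in a 3′ UTR. Slc11a2 (chr15:100387898-100425072, minus strand) had no match to these letters, although one of its isoforms is known to carry an iron-responsive element in the 3′ UTR, with a bulged stem that this search does not cover. No match was found in Ncoa4 (chr14:32159865-32179855, plus strand), Cp (chr3:19957054-20009145, plus strand), Gpx4 (chr10:80047166-80056439, plus strand), Acsl4 (chrX:142317993-142390535, minus strand) or Hamp (chr7:30942368-30944032, minus strand). No rat sequence was searched.

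In the mouse each value is the reads on a gene relative to the 75th percentile gene of that library, called the scaled value below. Per kilobase of the longest transcript, FTH1 was the most abundant of the 8 members that can be placed on one scale in WT mice (44.5 ± 7.95 scaled units per kb, SD, n = 4), followed by GPX4 (9.87 ± 0.726). The other 6 lay between 0.3 ± 0.0261 for ACSL4 and 0.606 ± 0.0276 for SLC40A1, and neighbours in that order overlapped: TFRC (0.49 ± 0.15), CP (0.486 ± 0.156), NCOA4 (0.498 ± 0.0814) and SLC11A2 (0.556 ± 0.0424) could not be told apart by their ranges over mice. FTL and HAMP were left out of this order, because each stands for a mean of several mouse genes in the deposited table.

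The libraries held 19309401 to 44449807 reads in mice and 24684042 to 40629810 in rats. CTNS itself had scaled values of 0.319 to 0.342 in KO and 0.824 to 1.03 in WT mice. In rats CTNS stood at 16.8 to 22.2 CPM (the usual reads-per-library-size unit of RNA sequencing, here after TMM scaling) in KO and 19.2 to 27.8 CPM in WT animals, so that the groups overlapped. Its change was −0.22 over all rats and −0.11 in rats 17 to 24, which did not pass, and −0.32 in rats 25 to 32, where it was called lower in KO (edgeR, adjusted p = 0.0511, 0.514 and 0.0391). The proximal tubule markers were present in every library, and their summed level was 360 to 385 scaled units in KO against 418 to 516 in WT mice. In rats 17 to 24 this sum was 17400 to 18100 CPM in KO and 20200 to 22300 CPM in WT, and in rats 25 to 32 it was 14700 to 18200 CPM and 27000 to 30100 CPM. A sum is set mostly by the most abundant genes. Of these markers, 1 of 10 was called lower in mice, 2 of 9 in rats 17 to 24 and 7 of 9 in rats 25 to 32. All symbols were called lower in 0.817%, 2.19% and 22.1%. Macrophage markers ran the other way: their sum was 5.14 to 6.32 scaled units in KO and 3.46 to 3.65 in WT mice, 246 to 269 CPM against 156 to 206 CPM in rats 17 to 24, and 457 to 652 CPM against 224 to 285 CPM in rats 25 to 32. Distal nephron markers summed to 201 to 225 scaled units in KO and 170 to 200 in WT mice. Their sum was 4140 to 4520 CPM in KO against 3820 to 4530 CPM in WT rats 17 to 24, and 4120 to 4960 CPM against 2960 to 3640 CPM in rats 25 to 32. Fewer cells of a type and less RNA per cell cannot be told apart in such bulk samples, and the part of these shifts in the results below was not tested.

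The members past the threshold (adjusted p under 0.05, Benjamini-Hochberg over all symbols tested) were counted together and set beside the share of all symbols called. In mice, 1 of 10 passed, SLC11A2, which was lower (limma on log2(value + 1)); of all 17376 symbols, 3.5% were called higher and 0.817% lower. In the 16 rats, 1 of 9 passed, CP, which was higher (edgeR); over 11584 symbols tested, 15.2% were called higher and 12.3% lower. In rats 17 to 24 it was again 1 of 9, CP, against 5.07% higher and 2.19% lower of all symbols. In rats 25 to 32 it was 3 of 9, with CP higher and SLC11A2 and NCOA4 lower, against 21.8% and 22.1% of all symbols. The share of members called lower in that range, 22.2%, was that of all symbols. HAMP was not tested in rats, since it did not pass the filter on low counts.

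Groups of animals that did not overlap were counted the same way. In mice CP was higher in every KO mouse than in any WT mouse, while FTH1 and SLC11A2 were lower, where 7.66% and 3.92% of all symbols separated in the upward and downward direction. In all rats CP alone separated (3.89% of symbols upward and 1.95% downward). It also separated alone in rats 17 to 24 (7.85% and 5.87%), and in rats 25 to 32 CP separated upward and SLC11A2 and NCOA4 downward (20% and 20%).

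**Figure D1:**
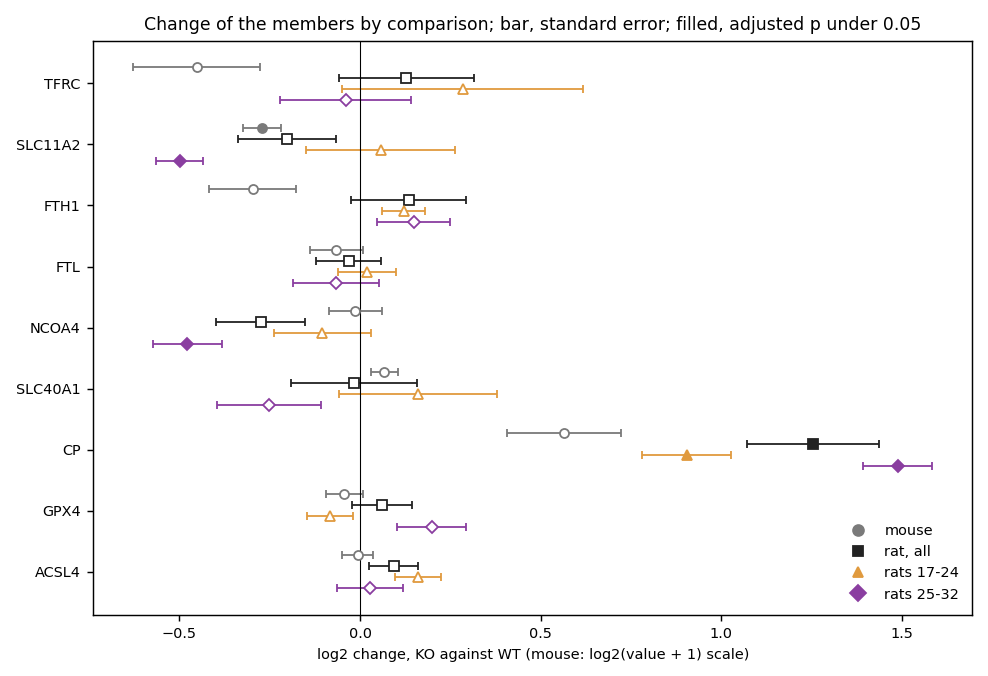
The log2 change of 9 members in KO against WT is drawn on the horizontal axis with its standard error for the mice, all rats, rats 17 to 24 and rats 25 to 32, and filled symbols mark an adjusted p under 0.05. CP lies to the right of 0 in the 4 comparisons, from 0.56 in mice to 1.49 in rats 25 to 32, and SLC11A2 and NCOA4 lie at −0.50 and −0.48 in rats 25 to 32.

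TFRC, the receptor that takes up transferrin, had scaled values of 2.02, 1.64, 3.32 and 2.6 in the 4 WT mice and of 1.06, 1.24, 1.6 and 1.95 in the 4 KO mice. In 3 of 4 KO mice the value was below the lowest WT mouse, and the groups overlapped. The change was −0.45 ± 0.18 (SE) on the log2(value + 1) scale and did not pass the threshold (limma, adjusted p = 0.231). In rats the groups overlapped in both ranges. WT rats 17 to 24 had 114, 55.3, 52.3 and 40.3 CPM and KO rats 94.4, 71.6, 73.4 and 76.6 CPM, and 1 WT animal, rat 17, stood above all others. The change in this range was 0.28 ± 0.33 (edgeR, adjusted p = 0.72), and it became 0.68 with an adjusted p of 0.0142 when rat 17 was left out. In rats 25 to 32 the levels were 47 to 88 CPM in WT and 55.3 to 65 CPM in KO (log2 change −0.04 ± 0.18, edgeR adjusted p = 0.879). The KO effect on TFRC was higher by 0.57 ± 0.20 in rats than in mice on the log2(value + 1) scale (limma, adjusted p = 0.121), and without rat 17 it was 0.65 and passed (adjusted p = 0.0369).

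SLC11A2, which moves ferrous iron out of the endosome, was the member that fell in mice. Its scaled values were 2.66, 2.21, 2.51 and 2.44 in WT and 1.85, 1.78, 1.74 and 2.08 in KO mice. The groups did not overlap, and the KO mean (1.86 ± 0.154, SD, n = 4) was 0.758 times the WT mean (2.46 ± 0.187). The change was −0.27 ± 0.05 on the log2(value + 1) scale (limma, adjusted p = 0.0349), and it was −0.42 on the reads recovered from the table (edgeR, adjusted p = 0.00378). The call was lost in 6 of 8 cases when 1 mouse was left out (KO mice 3, 5 and 6 and WT mice 1, 4 and 7), with values from −0.274 to −0.244 in these and adjusted p from 0.0751 to 0.0982.

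In rats SLC11A2 was called in the higher-numbered range. WT rats 25 to 32 had 298, 274, 305 and 314 CPM, and KO rats had 204, 197, 223 and 219 CPM. Every KO rat of this range was below every WT rat, with a log2 change of −0.50 ± 0.07 (edgeR, adjusted p = 0.000199). In rats 17 to 24 WT animals lay between 244 and 332 CPM, whereas the KO rats fell apart into 378 and 369 CPM and 214 and 243 CPM, 2 above and 2 below all WT rats. The change there was 0.06 ± 0.21 (edgeR, adjusted p = 0.92). The difference of the KO effect between the ranges was −0.55 ± 0.21 and did not pass the threshold (edgeR, adjusted p = 0.083), although it did without KO rat 20 (−0.69, adjusted p = 0.018). Over all 16 rats the change was −0.20 ± 0.13 (edgeR, adjusted p = 0.281).

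**Figure D2:**
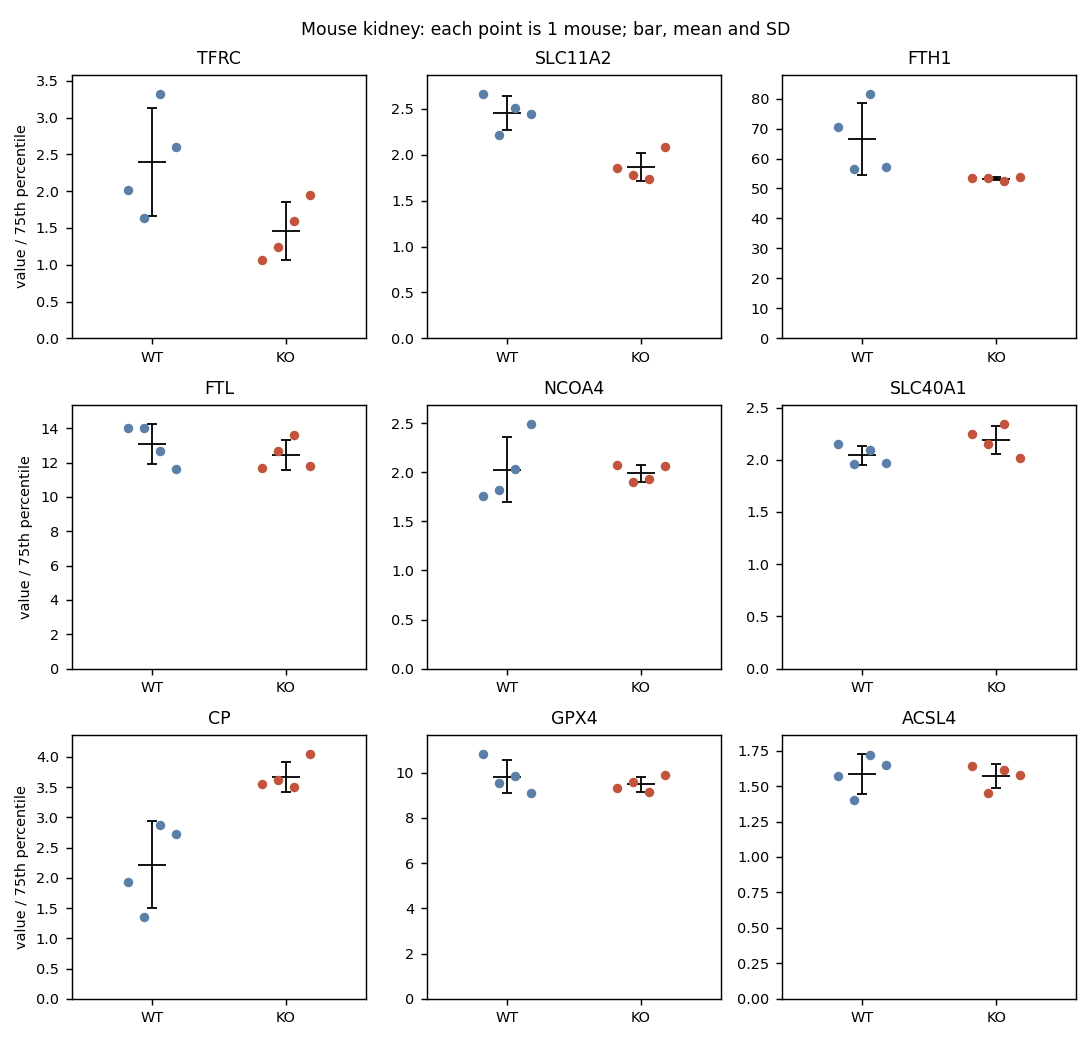
Scaled values (reads relative to the 75th percentile gene of the library, vertical axes from 0) of 9 members are drawn with 1 point per mouse and bars for the mean and SD of the 4 WT and 4 KO mice. The KO points of SLC11A2 and FTH1 lie below all WT points and those of CP above them, while FTL, NCOA4, GPX4 and ACSL4 overlap.

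FTH1, the ferritin chain that oxidises iron on its way into the shell, had scaled values of 70.5, 56.6, 81.5 and 57.3 in WT mice and of 53.6, 53.4, 52.4 and 53.9 in KO mice. The KO mice lay close together (SD 0.638) and below the more scattered WT mice (SD 11.9). The change of −0.30 ± 0.12 on the log2(value + 1) scale did not pass the threshold in the mouse (limma, adjusted p = 0.248), nor with edgeR on recovered reads (adjusted p = 0.0878), but it did with DESeq2 (−0.34, adjusted p = 0.0227). In rats the 2 ranges stood apart. WT rats 17 to 24 had 2620, 2370, 2460 and 2330 CPM, and WT rats 25 to 32 had 3650, 3180, 3860 and 3980 CPM, without overlap. Between WT rats of the ranges FTH1 was higher by 0.59 ± 0.09 on the log2 scale in rats 25 to 32 (edgeR, adjusted p = 0.000121), and it was the only member of 9 called there, where 11.7% of all symbols were called higher and 9.43% lower. Between genotypes no difference passed the threshold in either range. KO rats 17 to 24 had 2710, 2710, 2560 and 2580 CPM (log2 change 0.12 ± 0.06, edgeR adjusted p = 0.284), and KO rats 25 to 32 had 3910, 4500, 3440 and 4410 CPM (0.15 ± 0.10, adjusted p = 0.252).

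FTL, the light chain that helps the iron core to form, has to be read with care in both tables. In the mouse its reads were not whole in 5 of 8 mice and became whole when multiplied by 3, as a mean over 3 genes gives, and its scaled values were 11.6 to 14 in WT and 11.7 to 13.6 in KO mice (log2(value + 1) change −0.07 ± 0.07, limma, adjusted p = 0.759). In the rat the deposited values were only 431.8 to 560.3 reads, and in 16 of 16 rats they had the form of a geometric mean over 3 rows of which 1 held no reads. Undoing this mean, with the other rows taken as equal to each other, gave 21991 to 32500 reads per row. That is 734 to 1130 CPM in WT and 778 to 1090 CPM in KO rats, and it is not a total for the gene. The deposited and the recovered values gave no call for genotype in any rat comparison: over all rats the change was −0.03 ± 0.09 as deposited (edgeR, adjusted p = 0.821). WT rats 25 to 32 had 1090, 840, 1130 and 1100 CPM after recovery and WT rats 17 to 24 had 885, 785, 880 and 734 CPM. As deposited this difference was 0.25 ± 0.11 (edgeR, adjusted p = 0.105), and recovered it was 0.34 (adjusted p = 0.0209). Without WT rat 27 the deposited value passed as well (0.35, adjusted p = 0.0128).

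The ratio of heavy to light chain reads was taken within each library. In the rat, deposited FTL holds the read count to a power below 1, so that the ratio to it still moves with library depth, while the ratio to recovered FTL does not. In mice the ratio was 4.04 to 6.42 in WT and 3.86 to 4.59 in KO (log2 difference −0.23, two-sided exact permutation test, p = 0.171, n = 4 and 4). In rats 17 to 24 the ratio to deposited FTL was 151 to 165 in WT and 166 to 175 in KO, and in rats 25 to 32 it was 188 to 220 in WT and 229 to 239 in KO. The KO rats were above the WT rats of their own range in both ranges, by 0.10 and 0.21 on the log2 scale (exact permutation p = 0.0286 in each, the smallest that 4 against 4 animals allow). With FTL recovered, the ratio was 2.79 to 3.17 in WT and 3.07 to 3.29 in KO rats 17 to 24, which overlapped (exact permutation p = 0.0857), and 3.35 to 3.78 and 4.01 to 4.32 in rats 25 to 32, which did not (0.24 on the log2 scale, exact permutation p = 0.0286). The separation in rats 17 to 24 was thus seen with deposited FTL only. After adjustment over the 11 ratio tests made, each p of 0.0286 became 0.105 (exact permutation test). Over all rats the WT and KO ratios overlapped (exact permutation p = 0.179 with deposited and 0.0925 with recovered FTL, n = 8 and 8). This test took no account of the range, in which WT rats alone differed, so it cannot decide on a difference within the ranges. The ratio of TFRC to FTH1, which sets uptake beside storage, did not separate the genotypes: it was 0.0286 to 0.0453 in WT and 0.0198 to 0.0362 in KO mice (exact permutation p = 0.2, n = 4 and 4), and 0.0118 to 0.0435 in WT and 0.0123 to 0.0348 in KO rats (exact permutation p = 0.832, n = 8 and 8). Within rats 17 to 24 and rats 25 to 32 the groups overlapped as well (exact permutation p = 0.4 and 0.629).

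**Figure D3:**
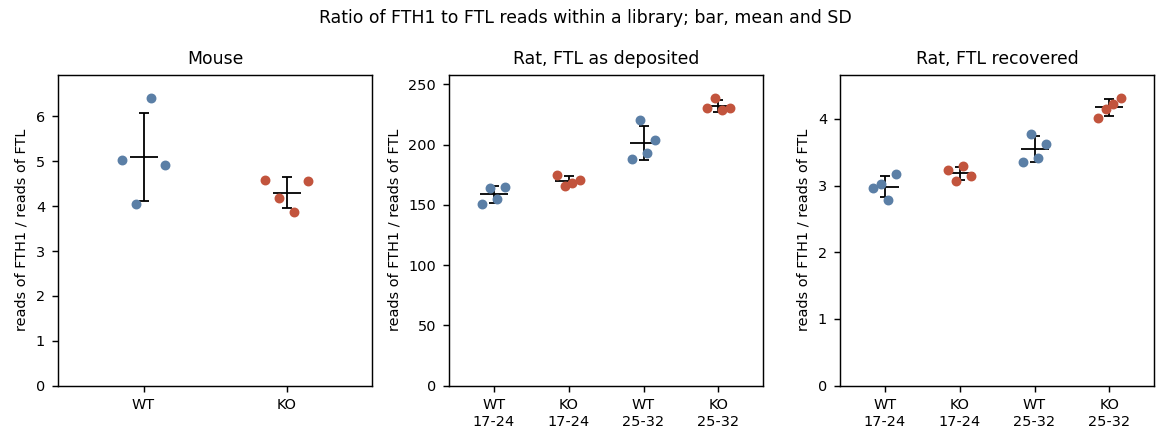
The ratio of FTH1 to FTL reads (vertical axes from 0) is drawn with 1 point per animal and bars for the mean and SD, for mice and for rats by range, with FTL as deposited and with FTL recovered from the geometric mean. In rats 25 to 32 the KO points (229 to 239, and 4.01 to 4.32 with FTL recovered) lie above the WT points in both rat panels.

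NCOA4, the receptor that delivers ferritin to the lysosome, had scaled values of 1.76, 1.82, 2.03 and 2.49 in WT mice and 2.07, 1.9, 1.93 and 2.06 in KO mice, which lay inside the WT range (log2(value + 1) change −0.01 ± 0.07, limma, adjusted p = 0.962). It fell in rats 25 to 32. WT rats had 287, 396, 337 and 355 CPM and KO rats had 262, 242, 254 and 228 CPM, all below the lowest WT rat. The change was −0.48 ± 0.10 on the log2 scale (edgeR, adjusted p = 0.00254). WT rats 17 to 24 were spread from 283 to 474 CPM, and the KO rats of that range lay inside them at 331 to 364 CPM (−0.10 ± 0.13, edgeR, adjusted p = 0.744). The difference of the KO effect between ranges was −0.37 ± 0.17 (edgeR, adjusted p = 0.143) and passed only without WT rat 23 (−0.50, adjusted p = 0.0293). Over all rats the change was −0.28 ± 0.12 (edgeR, adjusted p = 0.103), and it passed when the range was a term of the fit (−0.30, adjusted p = 0.0216).

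**Figure D4:**
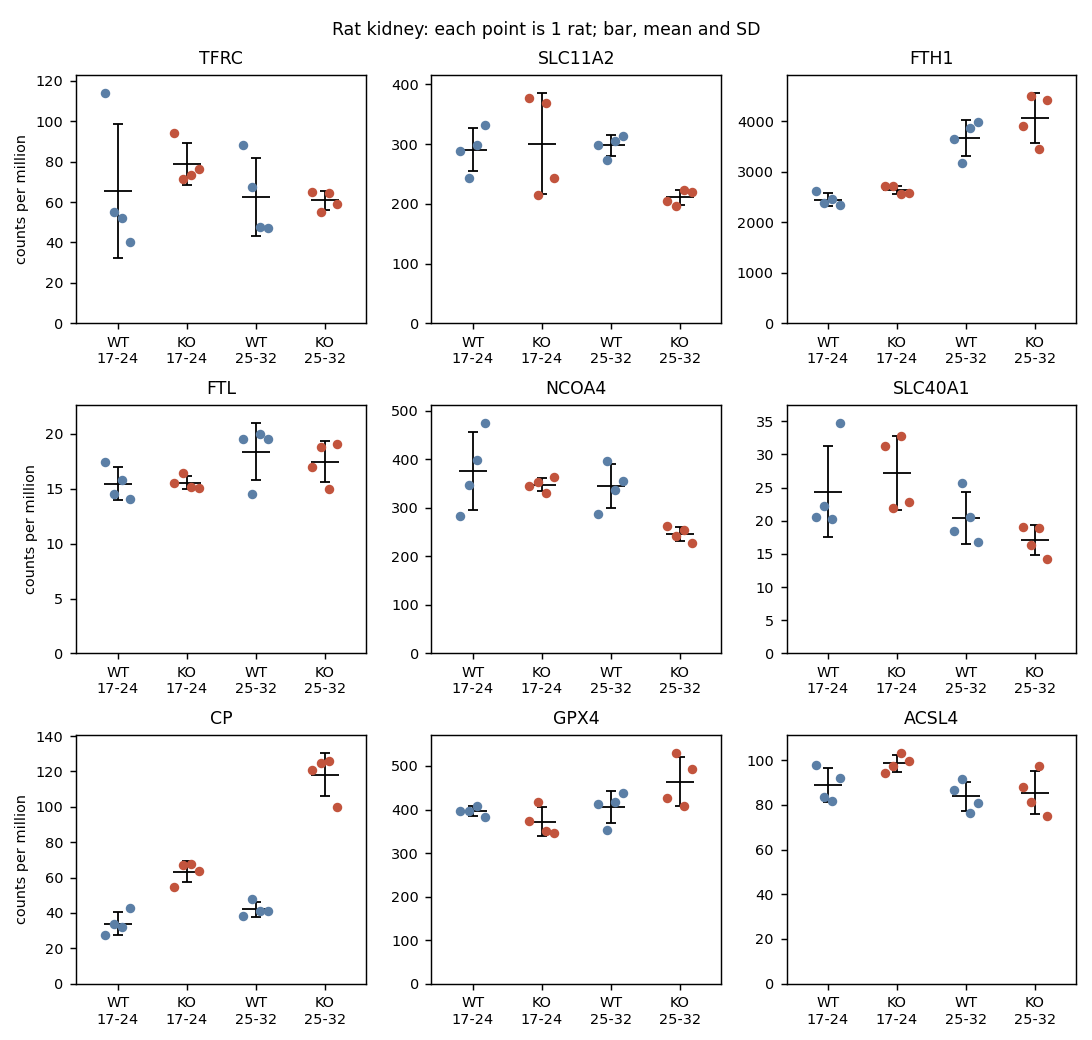
CPM values (vertical axes from 0) of 9 members, FTL as deposited, are drawn with 1 point per rat and bars for the mean and SD in WT and KO rats 17 to 24 and 25 to 32. The KO points of CP lie above all WT points in both ranges, those of SLC11A2 and NCOA4 lie below the WT points in rats 25 to 32 alone, and FTH1 is higher in rats 25 to 32 of both genotypes.

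CP, the ferroxidase that oxidises exported iron, was the member with the clearest rise. WT rats 17 to 24 had 27.3, 33.6, 32.3 and 42.6 CPM, and KO rats of that range had 54.8, 67.1, 67.5 and 63.7 CPM. WT rats 25 to 32 had 38.2, 48, 41.3 and 40.9 CPM, and KO rats had 121, 125, 126 and 100 CPM. CP was higher in 8 of 8 KO rats than in any WT rat of either range. The KO level was 1.87 times the WT level in rats 17 to 24 (log2 change 0.90 ± 0.12, edgeR, adjusted p = 0.00194) and 2.81 times in rats 25 to 32 (1.49 ± 0.10, adjusted p = 3e-06), and 2.39 times over all rats (1.25 ± 0.18, adjusted p = 0.000132). The difference of the KO effect between ranges was 0.59 ± 0.16 (edgeR, adjusted p = 0.0234), and CP was the 1 member of 9 for which it passed, against 7.1% of symbols called higher and 7.64% lower in that test. It was 0.56 with an adjusted p of 0.0542 without KO rat 28. CP in WT rats was higher by 0.31 ± 0.12 in rats 25 to 32 than in rats 17 to 24, which did not pass (edgeR, adjusted p = 0.0646) unless WT rat 23 was left out (0.44, adjusted p = 0.00716).

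In mice the scaled values of CP were 1.93, 1.35, 2.87 and 2.73 in WT and 3.55, 3.61, 3.5 and 4.04 in KO. All 4 KO mice were above all 4 WT mice, and the KO mean was 1.65 times the WT mean. The change of 0.56 ± 0.16 on the log2(value + 1) scale did not pass the threshold (limma, adjusted p = 0.101). On recovered reads it was 0.70 with both count tests, which differed in the call (edgeR, adjusted p = 0.132, and DESeq2, adjusted p = 0.0389). Along with CP, macrophage markers rose: 8 of 14 passed upward in mice, 9 of 13 tested in rats 17 to 24 and 12 of 13 in rats 25 to 32. Fibroblast markers rose in 4 of 7, 2 of 6 and 6 of 6, where 3.5%, 5.07% and 21.8% of all symbols were called higher. Their part in the rise of CP was not tested.

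SLC40A1, the iron exporter ferroportin, had scaled values of 2.15, 1.96, 2.09 and 1.97 in WT mice and of 2.25, 2.15, 2.34 and 2.02 in KO mice (log2(value + 1) change 0.07 ± 0.04, limma, adjusted p = 0.416). In WT rats 17 to 24 it stood at 20.2 to 34.7 CPM and in KO rats at 21.9 to 32.8 CPM. In that range 3 of 8 animals stood above the rest, namely WT rat 23 (34.7) and KO rats 18 (31.2) and 22 (32.8). The last pair were also the KO rats with the high SLC11A2 values. SLC40A1 in rats 25 to 32 was 16.8 to 25.7 CPM in WT and 14.3 to 19 CPM in KO rats (log2 change −0.25 ± 0.14, edgeR, adjusted p = 0.176). HAMP, the hepcidin gene that the liver is known for, was at the floor of both tables. It had 0.5 read in 1 mouse and 3 reads in 2 of 16 rats, at or under the 3 reads that a count of 0 allows in a library, so that no fold can be given.

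GPX4, the peroxidase that guards against ferroptosis, gave no call for genotype with all animals included (limma in mice, edgeR in rats). Its scaled values were 10.8, 9.53, 9.85 and 9.1 in WT and 9.33, 9.57, 9.13 and 9.9 in KO mice (log2(value + 1) change −0.04 ± 0.05, limma, adjusted p = 0.781). In rats 17 to 24 it was 383 to 409 CPM in WT and 345 to 418 CPM in KO, with 3 of 4 KO rats below the lowest WT rat (log2 change −0.08 ± 0.06, edgeR, adjusted p = 0.527). At 352 to 437 CPM in WT and 408 to 529 CPM in KO, GPX4 in rats 25 to 32 did not pass the threshold (0.20 ± 0.10, edgeR, adjusted p = 0.115). Without KO rat 30 the change was 0.26 and passed (adjusted p = 0.0383). The difference between ranges, 0.29 ± 0.12, did not pass (edgeR, adjusted p = 0.117), and it was 0.34 with an adjusted p of 0.0493 without the same rat.

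ACSL4, which prepares the fatty acids that become peroxidised, had scaled values of 1.4 to 1.72 in WT and 1.45 to 1.64 in KO mice (log2(value + 1) change −0.01 ± 0.04, limma, adjusted p = 0.962). Rats 17 to 24 had 81.7 to 97.8 CPM in WT and 94.3 to 103 CPM in KO (log2 change 0.16 ± 0.06, edgeR, adjusted p = 0.166), and rats 25 to 32 had 76.4 to 91.5 CPM and 75.2 to 97.3 CPM (0.03 ± 0.09, adjusted p = 0.822). The groups overlapped in mice and in both rat ranges.

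The 4 members with a match to the letters of the iron-responsive element (TFRC, FTH1, FTL and SLC40A1) gave no call for genotype by the main tests, limma in mice and edgeR in rats. FTH1, FTL and SLC40A1 have the element in the 5′ UTR, where it acts on translation, which RNA levels do not show. SLC11A2, the other known carrier, was called lower in mice and in rats 25 to 32, as described above. Unadjusted p was under 0.05 for 2 of the 4 in mice, TFRC and FTH1, beside 18.4% of all symbols (limma). In all rats it was under 0.05 for 0 of 4, beside 39.1% of all symbols, and for 0 of 4 in each range, beside 21.2% and 51.9% (edgeR). DESeq2 called FTH1 in mice and none of the 4 in rats. When the KO effect in rats was set against that in mice, no member passed (limma, with 1 of 9 at an unadjusted p under 0.05, beside 18.4% of all symbols, and 0 of 9 called by edgeR on the reads of both species), where 1.8% of 11216 symbols were called higher and 1.36% lower in rats. The FTH1 effect was higher by 0.46 ± 0.25 in rats (limma, adjusted p = 0.328), and that on CP by 0.12 ± 0.20 (adjusted p = 0.775). Both differences are on the log2(value + 1) scale, which understates changes of low genes, so the one for CP does not show equal fold changes.

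Beyond the members, 81 further genes of iron handling and ferroptosis were counted in 6 lists, of which 81 were tested in mice, 67 in all rats and in rats 17 to 24, and 69 in rats 25 to 32. In mice 1 of 81 was called higher and 2 lower, beside 3.5% and 0.817% of all symbols (limma). An unadjusted p under 0.05 was found for 15 of the 81, beside 18.4% of all symbols (limma). On recovered reads edgeR and DESeq2 called 5 and 8 of them. The 3 called by limma were LCN2, a siderophore-binding lipocalin of injured tubules (0.017 to 0.0518 scaled units in WT and 0.0653 to 0.121 in KO), and the heme synthesis enzymes UROS (0.527 to 0.571 against 0.451 to 0.493) and FECH (3.69 to 4.18 against 3.07 to 3.31). The 3 separated the mice without overlap, and so did 4 genes of the same lists that were not called, namely TFR2 and SCARA5 upward and TF and ALAD downward (named after their values were seen), beside 7.66% and 3.92% of all symbols. In all rats 12 of 67 (17.9%) were called higher and 13 (19.4%) lower, beside 15.2% and 12.3% of all symbols. In rats 17 to 24 it was 4 (5.97%) and 2 (2.99%) with edgeR, beside 5.07% and 2.19% of all symbols, where DESeq2 called 13 in all. In rats 25 to 32 it was 21 of 69 (30.4%) in each direction, beside 21.8% and 22.1% of all symbols. The median log2 change over the lists was −0.023 in all rats, and that over all symbols was −0.020.

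Among the genes of defence against ferroptosis, 3 of 17 rose and 3 fell in all rats, beside 15.2% and 12.3% of all symbols. SLC7A11, the cystine importer of the cell surface, had 0 to 3 reads per WT rat and 11 to 76 reads per KO rat, that is 0.351 to 0.865 CPM in KO rats 17 to 24 and 1.52 to 2.33 CPM in KO rats 25 to 32 against at most 0.121 CPM in WT rats (edgeR, adjusted p = 2.1e-05). With so few WT reads its size of change is uncertain. In mice it had 3 to 7 reads per WT library and 3 to 16 per KO library. GCH1, which makes the antioxidant tetrahydrobiopterin, rose by 0.68 ± 0.20 on the log2 scale over all rats (edgeR, adjusted p = 0.0159). By range its change was 1.16 in rats 25 to 32, which passed, and 0.30 in rats 17 to 24, which did not (edgeR, adjusted p = 0.00256 and 0.485). The difference of the KO effect between the ranges, 0.86 ± 0.31, did not pass (edgeR, adjusted p = 0.0713). WT rats 25 to 32 were themselves lower than WT rats 17 to 24 (−0.74, edgeR, adjusted p = 0.0299). GSR, which regenerates glutathione, was 279 to 384 CPM in WT and 232 to 279 CPM in KO rats (−0.36 ± 0.06, edgeR, adjusted p = 0.000643). ACSL3, an activator of monounsaturated fatty acids, changed by −0.28 ± 0.06 without overlap of the groups (edgeR, adjusted p = 0.0016).

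Of the genes of lipid peroxidation and ferroptosis execution, 4 of 15 rose and 1 fell in all rats, beside 15.2% and 12.3% of all symbols. CHAC1, which degrades glutathione, was 0.319 to 0.779 CPM in KO rats 17 to 24 and 1.3 to 2.15 CPM in KO rats 25 to 32, beside 0.223 to 0.584 CPM in WT rats (log2 change over all rats 1.59 ± 0.36, edgeR, adjusted p = 0.00353). The lipoxygenase gene ALOX12 rose by 0.93 ± 0.21 (adjusted p = 0.00413, edgeR), and PTGS2, the inducible cyclooxygenase, changed by −0.83 ± 0.28 (adjusted p = 0.0375, edgeR). By range PTGS2 changed by −1.07 in rats 25 to 32, which passed, and by −0.44 in rats 17 to 24, which did not (edgeR, adjusted p = 0.00947 and 0.464). The difference, −0.63 ± 0.43, did not pass (edgeR, adjusted p = 0.328). WT rats 25 to 32 were themselves higher in PTGS2 than WT rats 17 to 24 (1.02, edgeR, adjusted p = 0.0192). The count over this list was 0 of 15 in rats 17 to 24 (edgeR, 1 at an unadjusted p under 0.05, and 0 by DESeq2 and limma-voom) and 6 higher and 2 lower of 16 in rats 25 to 32. Of all symbols, 5.07% were called higher and 2.19% lower in rats 17 to 24, and 21.8% and 22.1% in rats 25 to 32. For 4 of 16, CHAC1, ALOX12, HSPB1 and CYB5R1 (the last pair named after their values were seen), the KO effect differed between the ranges and was higher in rats 25 to 32 (edgeR). Of these 4, ALOX12 and HSPB1 were lower in WT rats 25 to 32 than in WT rats 17 to 24 (−0.79 and −0.41, edgeR, adjusted p = 0.0297 and 0.0189). CHAC1 and CYB5R1 did not pass between WT rats (edgeR, adjusted p = 0.448 and 0.74). In the test for a KO effect that differs between the ranges, 5 of 69 further genes over the 6 lists passed upward and 6 downward. Of all symbols, 7.1% and 7.64% did so. The other one passing upward was LCN2, and those passing downward were SLC39A8, BLVRA, SLC25A37 (named after its values were seen), GSR, ACSL3 and FBXL5.

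In the heme and mitochondrial iron list 2 of 17 rose and 6 fell in all rats, beside 15.2% and 12.3% of all symbols. HMOX1, which breaks heme down and frees its iron, was 3.83 to 6.07 CPM in WT rats, 10.4 to 14.3 CPM in KO rats 17 to 24 and 18.2 to 22.8 CPM in KO rats 25 to 32 (log2 change 1.63 ± 0.18, edgeR, adjusted p = 7e-06). BLVRA, the next enzyme of that path, was 19 to 37.7 CPM in WT and 42.9 to 73.6 CPM in KO rats (1.09 ± 0.15, edgeR, adjusted p = 6e-05). Its rise was 1.49 in rats 17 to 24 and 0.78 in rats 25 to 32, where WT rats started higher (31.4 to 37.7 CPM against 19 to 24.1 CPM), and the difference of −0.71 passed (edgeR, adjusted p = 0.0248). UROS and PPOX, both enzymes of heme synthesis, changed by −0.33 ± 0.06 and −0.33 ± 0.11 (edgeR, adjusted p = 0.000704 and 0.0294).

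Iron uptake genes rose in 3 of 11 cases and fell in 1 in all rats, where 15.2% of all symbols were called higher and 12.3% lower. LCN2 was 2.09 to 3.22 CPM in WT rats, 5.53 to 10.2 CPM in KO rats 17 to 24 and 55 to 123 CPM in KO rats 25 to 32 (log2 change 3.99 ± 0.62, edgeR, adjusted p = 0.00021). HFE, a partner of the transferrin receptors, rose by 0.60 ± 0.12 (edgeR, adjusted p = 0.00123), and SLC39A8, a metal importer, changed by −0.48 ± 0.13 (edgeR, adjusted p = 0.0115). By range SLC39A8 changed by −0.83 in rats 25 to 32, which passed, and by −0.03 in rats 17 to 24, which did not (edgeR, adjusted p = 5e-06 and 0.819). Its WT levels differed, at 51.1 to 55.9 CPM and 30.2 to 35.1 CPM in these ranges. In the list of iron storage and sensing 2 of 4 tested genes fell, ACO1 (iron regulatory protein 1, −0.47 ± 0.09, edgeR, adjusted p = 0.00106) and FBXL5 (which marks the other iron regulatory protein for decay, −0.23 ± 0.06, adjusted p = 0.0073). In the list of iron export and the hepcidin axis 0 of 3 passed in all rats (edgeR, 2 at an unadjusted p under 0.05, and 1 each by DESeq2 and limma-voom). In rats 25 to 32 ERFE and HEPH of that list rose by 2.07 ± 0.48 and 0.37 ± 0.13, while HJV changed by −1.12 ± 0.22 (edgeR, adjusted p = 0.00607, 0.0469 and 0.00204). ERFE was near the floor, with 1 to 8 reads per WT rat and 4 to 30 per KO rat over both ranges. The size of its change is therefore uncertain. Of all symbols, 21.8% were called higher and 22.1% lower in that range.

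**Figure D5:**
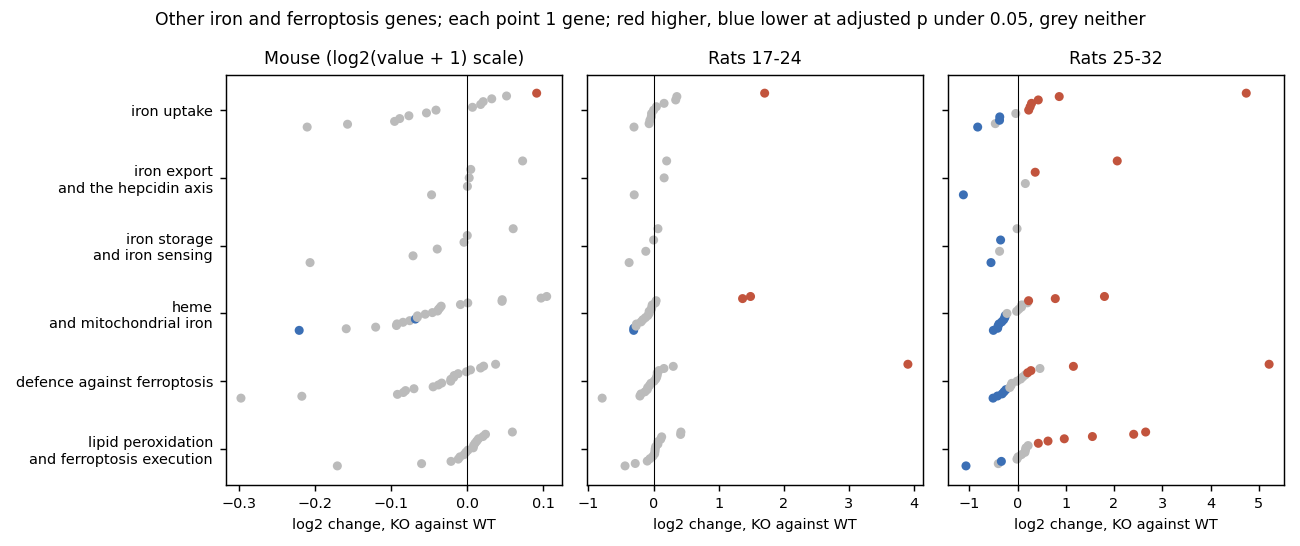
Log2 changes in KO against WT (horizontal axes, which differ in their scale) of the further iron and ferroptosis genes are drawn by list for mice, rats 17 to 24 and rats 25 to 32, with 1 point per gene, red for genes called higher, blue for genes called lower and grey for the rest. In mice 3 points are coloured, in rats 17 to 24 there are 6 and in rats 25 to 32 there are 42.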

How the data were processed

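Libraries (stranded mRNA, paired 100-nucleotide reads) are described in the study's methods. The submitters' processing notes name bcl2fastq 2.20, STAR 2.7.3, DESeq2 1.24.0, R 3.6.1, rn5 and mm10, without roles. The mouse table deposited by the authors holds a signal, which its values show to be the reads plus 0.5 over the library's 75th percentile plus 0.5. For rats the authors deposited estimated counts, the reads plus 1/6, and 97.7% of values were whole within 0.01 after its removal; these were rounded. Recovered mouse reads were whole for 99.0% of values.

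Mouse values were tested with limma 3.58.1 on log2(value + 1), a scale that understates changes of low genes; no filter was used. Count tests on recovered mouse reads were alternatives. Rat counts were tested with edgeR 4.0.16 (quasi-likelihood, TMM, filter on low counts), over all rats without a covariate, in each range, and in a fit over 4 groups for the difference between ranges. Species were compared with limma on values scaled as in the mouse table. Adjusted p-values are Benjamini-Hochberg over all symbols tested, with a threshold of 0.05. Ratios were tested by two-sided exact permutation (scipy 1.17.1). Rat levels are CPM after TMM scaling. Depth covers counting error only, and the number of animals limits precision. The fits were tested on simulated data. Alternatives were DESeq2 1.42.0, other scalings, filters and pseudocounts, limma-voom, the number range as a covariate and leaving out each animal; the recovery of FTL in rats was added after the data were seen.

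The members and lists were chosen with earlier results of these data known. All 10 members were named; of the lists, every gene past the threshold in mice and the 2 largest rises and 2 largest falls past it in rats were named.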

Additional observations from a re-analysis of the deposited data

Results flagged for a closer look

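In 72 sets of animals (9 members in 8 groups of 4 or 8), 2 single animals stood apart from the rest of their group by more than Dixon's 95% limit for a group of that size, and chance alone flags about 1 set in 20. WT rat 23 had 34.7 CPM of SLC40A1, while the other WT rats 17 to 24 had 20.2 to 22.2 CPM. WT rat 27 had 14.5 CPM of FTL as deposited, while the other WT rats 25 to 32 had 19.5 to 20 CPM. Its library was the deepest of the rats (40629810 reads), deposited FTL grows less than in proportion to depth, and with FTL recovered it had 840 CPM beside 1090 to 1130 CPM. The third flagged value is a difference between groups: the KO effect on CP was higher by 0.59 on the log2 scale in rats 25 to 32 than in rats 17 to 24 (edgeR, adjusted p = 0.0234), and CP was higher in 4 of 4 KO rats than in every WT rat within each range.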

How the results depend on the processing

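No paired analysis was possible because the groups compared share no replicate numbers. The calls of CP for genotype in rats, and those of SLC11A2 and NCOA4 in rats 25 to 32, held under each alternative run. With edgeR and DESeq2 on recovered reads 1198 and 1519 mouse symbols were called, against 751 with limma, and DESeq2 called 3 members; the range as a covariate gave 2 members in all rats, and FTL recovered gave 2 between WT rats of the ranges. A mean value of at least 0.1 left 123 symbols that differed between species. For these counts the cause was not tested. With FTL recovered the log2 difference, KO minus WT, of the ratio of FTH1 to FTL was 0.096 in rats 17 to 24 (exact permutation p = 0.0857). TFRC, which was not called, changed sign with limma-voom to 0.0078 in rats 25 to 32 and to 0.019 between WT ranges.

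When 1 animal was left out, symbols called numbered 352 to 683 in mice, 504 to 930 in rats 17 to 24, 1010 to 2392 for the difference between ranges and 181 to 478 between species. Members called were 0 to 1 in mice, 1 to 2 in rats 17 to 24, 0 to 2 between ranges, 1 to 2 between WT ranges and 0 to 1 between species. The log2 difference, KO minus WT, of the ratio of FTH1 to deposited FTL lay at 0.077 to 0.12 in rats 17 to 24 and 0.177 to 0.252 in rats 25 to 32, where 4 against 3 rats cannot give an exact permutation p under 0.0571, and that of TFRC to FTH1 at −0.047 to 0.222 in rats and −0.299 to 0.044 in rats 25 to 32. Changes of uncalled members that crossed 0 were, in mice, −0.055 to 0.058 for NCOA4 and −0.042 to 0.018 for ACSL4; in all rats, −0.066 to 0.025 for FTL and −0.12 to 0.101 for SLC40A1; in rats 17 to 24, −0.026 to 0.075 for FTL, −0.076 to 0.19 for SLC11A2 and −0.222 to 0.024 for NCOA4; in rats 25 to 32, −0.158 to 0.171 for TFRC, −0.159 to 0.0036 for FTL and −0.0398 to 0.088 for ACSL4; between ranges, −0.032 to 0.104 for FTH1; and between WT ranges, −0.284 to 0.343 for TFRC, −0.039 to 0.106 for SLC11A2, −0.022 to 0.091 for GPX4 and −0.243 to 0.0028 for NCOA4. Of the 81 further pathway genes, limma called 1 higher and 2 lower in mice, where edgeR and DESeq2 on recovered reads called 5 and 8. Among rats 17 to 24 edgeR called 4 of them higher and 2 lower and DESeq2 called 13, and for the difference between ranges edgeR called 5 higher and 6 lower and DESeq2 called 17; the cause was not tested.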

Other observations

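The WT rats of the 2 number ranges differed in many of the further iron and ferroptosis genes. Of 69 tested, 19 were higher and 7 lower in WT rats 25 to 32 than in WT rats 17 to 24 (edgeR), beside 11.7% and 9.43% of all symbols. By list, 7 of 17 genes of defence against ferroptosis and 6 of 17 genes of heme and mitochondrial iron were higher, and 1 of each was lower. Cell type markers differed between these WT rats too: 6 of 9 proximal tubule markers were higher and 1 lower (edgeR). Lower as well were 5 of 5 distal nephron markers and 4 of 5 podocyte and endothelium markers (edgeR). Their part in the gene differences was not tested. The metal importer SLC39A8 had 51.1 to 55.9 CPM in WT rats 25 to 32 and 30.2 to 35.1 CPM in WT rats 17 to 24, while KO rats had 28.7 to 31.3 CPM and 30.2 to 31.8 CPM.

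Genes of other cell types were counted as well. Cycling cell genes rose in 8 of 8 cases in mice and 6 of 6 in rats, beside 3.5% and 15.2% of all symbols (summed level 88.5 to 140 CPM in KO and 54.2 to 64.9 CPM in WT rats). Of 6 lymphocyte markers tested in all rats 5 rose, CD3D, CD3E, CD3G, CD8A and CD4, while the B cell marker CD79B did not pass (1.03 ± 0.42, edgeR, adjusted p = 0.0764). In rats 25 to 32 CD79B was called higher (1.31 ± 0.42, edgeR, adjusted p = 0.0287), and 6 of 6 lymphocyte markers passed there, beside 21.8% of all symbols. In mice 0 of 9 lymphocyte markers were called (limma, 0 at an unadjusted p under 0.05, and 0 by edgeR and DESeq2 on recovered reads), and their sum of 0.198 to 0.293 scaled units in KO overlapped that of 0.156 to 0.223 in WT. Red blood cell markers, which bear on heme genes, had a sum of 51.4 to 415 CPM in KO and 205 to 433 CPM in WT rats, which overlapped.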
